A study of Mus musculus with 40 samples.

Results

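The 10 EMT-6 tumors of mice given anti-PD-L1 were ranked by a hypoxia score, and the 5 with the highest score, called hypoxia-high, were set against the 5 with the lowest, called hypoxia-low. They are 10 of the 40 tumors sequenced. The score is the mean over Car9, Vegfa, Slc2a1, Egln3 and Ndrg1 of log2(CPM + 1), where CPM is a gene's count relative to the library's total, scaled by edgeR's TMM method. Because the groups were picked by measured expression, differences between them are given as descriptions with no test. Tests of the score come from tumors that had no part in the ranking. A last test compares the whole anti-PD-L1 group with the bifunctional group, irrespective of rank.

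EMT-6 is a mouse mammary carcinoma line, placed here in the mammary pad of female Balb/C mice aged 8 to 12 weeks. Intravenous dosing started 20 days after inoculation, when tumors averaged 400 mm3, and was given on days 0, 1 and 2. Collection followed on day 6. The 10 ranked tumors came from mice given 400 µg of anti-PD-L1, an antibody to a ligand that restrains T cells. The other groups, also of 10, received 400 µg of an isotype control, 492 µg of a trap control, or 492 µg of a bifunctional protein. The bifunctional protein joins anti-PD-L1 to a TGF-β trap, and the trap control carries the same trap on an antibody mutated to lose PD-L1 binding. The labels name 1 mouse per tumor, and all RNA was bulk RNA from snap-frozen tissue, so fewer cells of a type and less RNA per cell cannot be told apart.

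In cells short of oxygen, the prolyl hydroxylases of the EGLN family stop marking HIF-1α and HIF-2α for destruction by VHL. The stabilised factors bind a short core sequence with their partner ARNT and switch on genes for glucose uptake and glycolysis, pH control, vessel growth and their own hydroxylases. Solid tumors commonly hold such regions where growth has outrun the blood supply. In the score, Car9 encodes a carbonic anhydrase that regulates pH, Vegfa a vessel growth factor and Slc2a1 the glucose transporter GLUT1. Egln3 encodes one of the oxygen-sensing hydroxylases, and Ndrg1 a stress-response protein.

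The 10 libraries held 23645117 to 27191617 expected counts and 19154 to 19778 detected genes. The 7SL and mitochondrial ribosomal RNAs took 13.2% to 17.0% of counts in the hypoxia-high tumors and 11.7% to 16.5% in the hypoxia-low tumors. The closest pair of the 10 still differed beyond sampling noise, with a chi-square of 12.6 per degree of freedom. Among tumor markers, Vim ran from 3157 to 4283 CPM and Krt8 from 318.0 to 705.2 CPM. Krt18 (14.5 to 59.5 CPM) and Krt19 (1.42 to 27.1 CPM) were lower. The epithelial Epcam (2.29 to 11.3 CPM) and Cdh1 (2.596 to 6.734 CPM) were low. Vim is also a fibroblast marker, so its level in bulk RNA does not identify EMT-6 cells. Of the hypoxia-low tumors, 2 stood apart in the level of long genes relative to short genes, by annotated transcript length. The length of the RNA itself was not measured. An index of the level of the longest genes less that of the shortest genes, on the log2 scale, was -0.479 in C0469 and -0.242 in C0470. In the other 8 tumors this index ran from -0.12 to 0.148. Another hypoxia-low tumor, C0475, held 184.3 summed CPM of 7 skeletal muscle genes against 0.829 to 1.74 in the other 9.

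The score separated the tumors weakly. From the top, the hypoxia-high tumors scored 6.71 (C0474), 6.69 (C0478), 6.59 (C0473), 6.58 (C0471) and 6.50 (C0476). The hypoxia-low tumors scored 6.48 (C0477), 6.38 (C0472), 6.15 (C0470), 6.01 (C0469) and 5.97 (C0475). The tumors on either side of the division, C0476 and C0477, differed by only 0.019. The widest step, 0.23, lay lower down, between C0472 and C0470, and left 7 tumors above and 3 below. The whole range of the 10 was 0.740. In the 10 bifunctional tumors it was 1.92, from 5.24 to 7.16, and the 4 trap control tumors with a like share of structural RNA ran from 6.04 to 7.18.

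**Figure D1:**
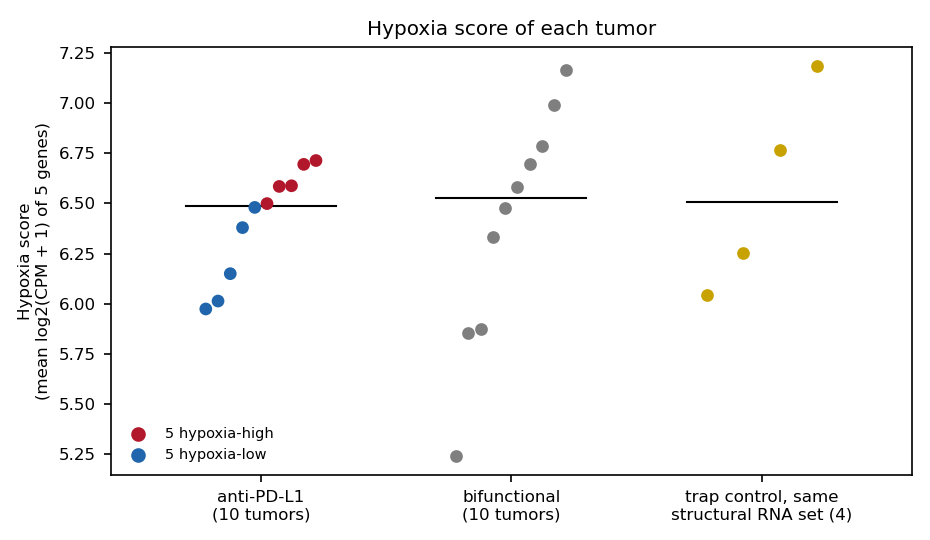
Hypoxia score of each tumor (y axis, mean log2(CPM + 1) of 5 genes) in the anti-PD-L1 group, the bifunctional group and the 4 trap control tumors with a like share of structural RNA; points are tumors and horizontal lines are group medians. The hypoxia-high (red) and hypoxia-low (blue) tumors meet at 6.50 and 6.48, and the anti-PD-L1 tumors span 0.740 against 1.92 in the bifunctional group.

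The single score genes followed the ranking only in part, and each is a description, since they chose the groups. Slc2a1 (ENSMUSG00000028645, mm10 chromosome 4, 119108711 to 119137983, plus strand) was at 362.5, 337.8, 314.4, 321.6 and 288.4 CPM in the hypoxia-high tumors, in the order above. In the hypoxia-low tumors it was at 295.6, 294.8, 244.8, 258.9 and 166.3 CPM. The groups overlapped through C0476, which lay below C0477 and C0472. Ndrg1 (ENSMUSG00000005125, chromosome 15, 66929318 to 66969640, minus strand) ran from 143.4 to 175.4 CPM in hypoxia-high and from 112.7 to 149.6 CPM in hypoxia-low tumors. Vegfa (ENSMUSG00000023951, chromosome 17, 46016993 to 46032369, minus strand) ran from 169.0 to 205.7 CPM and from 128.1 to 176.6 CPM. Both genes also overlapped, with C0477 or C0472 reaching into the upper group.

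Car9 (ENSMUSG00000028463, chromosome 4, 43506966 to 43513729, plus strand) was the least faithful to the division. It was at 25.2, 30.9, 27.0, 19.6 and 16.8 CPM in hypoxia-high tumors and at 26.6, 20.0, 14.1, 14.3 and 12.1 CPM in hypoxia-low tumors. C0477 of the low group thus exceeded C0474, C0471 and C0476 of the high group. Egln3 (ENSMUSG00000035105, chromosome 12, 54178981 to 54203860, minus strand) was at 43.9, 33.8, 26.2, 42.8 and 38.5 CPM against 25.1, 26.1, 29.7, 18.2 and 26.2 CPM. Only C0473 of the high group fell among the low tumors. None of the 5 genes separated the groups completely.

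Among the other 15178 genes compared, 32 had all 5 hypoxia-high tumors above all 5 hypoxia-low tumors (0.211%) and 66 had all 5 below (0.435%). How many genes chance alone would separate was not computed, so these counts are no evidence of a difference. The 32 and 66 held no member of the HIF, glycolysis or other gene lists. With the other tumors kept in their groups, leaving tumors out can only add genes to such counts. Leaving out 1 of the 10 gave 59 to 115 and 89 to 166, and without C0469 and C0470 they were 217 and 183. All of the 32 and 66 remained separated each time. The genes depended on which of C0476 and C0477 was placed in the upper group: dropping Vegfa or Egln3 from the score exchanged them, and 0 of the 32 and 0 of the 66 remained separated. Genes of the oxygen response were nevertheless mostly higher in the hypoxia-high tumors, by small amounts. Of 9 measured HIF factors and oxygen sensors all 9 had a higher mean, with a median difference in mean log2(CPM + 1) of 0.14. Without C0469 and C0470, 5 of the 9 were higher and 4 lower, with a median of 0.12. Of 22 glycolysis and lactate genes 20 were higher, with a median of 0.15. Of 39 other HIF target genes 32 were higher, with a median of 0.21. Without those 2 tumors 17 of the 22 and 36 of the 39 were higher, with medians of 0.11 and 0.21. Over all genes 7752 were higher and 7426 lower, with a median of 0.00 to 2 decimals.

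Several of these genes fell into 2 levels that followed the 7 and 3 tumors better than the 5 and 5. Hk2 (ENSMUSG00000000628, chromosome 6, 82725025 to 82774454, minus strand), the hexokinase that traps glucose in the cell, was at 119.9, 123.7, 147.4, 133.9 and 146.3 CPM in the hypoxia-high tumors. In the hypoxia-low tumors it was at 113.1, 129.6, 61.4, 61.0 and 75.8 CPM. C0472 lay among the hypoxia-high tumors and C0477 just below them, while C0470, C0469 and C0475 lay well below all others. The difference in mean log2(CPM + 1) was 0.67.

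Mxi1 (ENSMUSG00000025025, chromosome 19, 53310518 to 53375810, plus strand), a partner of MAX that opposes MYC, was at 78.7, 84.3, 85.5, 68.2 and 73.4 CPM against 78.8, 85.0, 35.4, 45.0 and 40.2 CPM. The same 3 tumors were low, the groups overlapped through C0477 and C0472, and the difference was 0.54. Adm (ENSMUSG00000030790, chromosome 7, 110627661 to 110629820, plus strand), the vasodilator peptide adrenomedullin, was at 134.6, 132.8, 99.1, 82.6 and 75.6 CPM against 80.1, 88.2, 53.0, 73.5 and 30.1 CPM. Its difference of 0.74 was the largest among the HIF targets, and C0475 was lowest. Egln1 (ENSMUSG00000031987, chromosome 8, 124908587 to 124949324, minus strand), the main HIF prolyl hydroxylase, was at 132.6, 149.5, 142.6, 145.8 and 136.9 CPM against 144.5, 135.0, 73.7, 71.9 and 107.0 CPM. C0470 and C0469 were lowest, and the difference was 0.47. Hif1a itself (ENSMUSG00000021109, chromosome 12, 73901375 to 73947530, plus strand) ran from 333.1 to 427.3 CPM in hypoxia-high tumors and from 265.4 to 334.1 CPM in hypoxia-low tumors. C0477 and C0470, at 334.1 and 333.6 CPM, just exceeded the lowest hypoxia-high tumor.

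**Figure D2:**
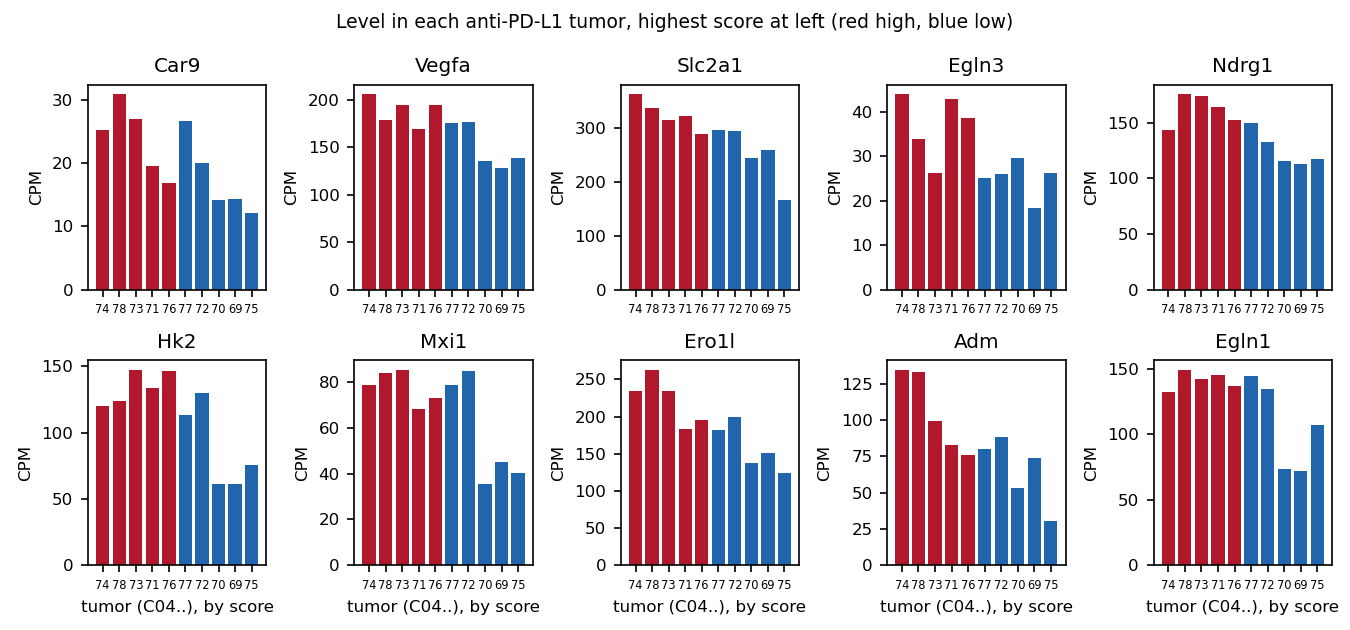
CPM (y axes, starting at 0) of the 5 score genes (top) and of Hk2, Mxi1, Ero1l, Adm and Egln1 (bottom) in each anti-PD-L1 tumor, 1 bar per tumor, ordered from the highest score at left; tick labels are the last 2 digits of the tumor number, red bars are hypoxia-high and blue bars hypoxia-low. Hk2 is at 61.0 to 75.8 CPM in the 3 lowest-scoring tumors and at 113.1 to 147.4 CPM in the other 7.

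Dividing the tumors at the widest step, 7 against 3, was chosen after the scores were seen. It separated 426 genes upward (2.81%) and 399 downward (2.63%), and the hypoxia lists then held complete separations. Groups of 7 and 3 are separated by chance more often than equal groups of the same tumors. These shares therefore cannot be set against those of the equal groups. The lower side consisted of C0469 and C0470, with less RNA from long genes, and C0475, with the skeletal muscle RNA; the part of either in these separations was not tested. Among glycolysis genes 6 of 22 were higher in all 7 tumors: Hk1, Hk2, Gpi1, Pfkl, Pfkp and Pfkfb3. Among other HIF targets 8 of 39 were higher, namely Adm, Kdm4b, P4ha2, Mxi1, Gys1, Bhlhe40, Ero1l and Zfp395, while Tfrc and P4hb were lower. Of the HIF factors and sensors 2 of 9, Egln1 and Egln2, were higher. These genes are named for that separation, after their values were seen.

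Upstream sequence is shown for 3 score genes, for 4 other genes of the oxygen response described here, and for Ccr2, a monocyte receptor that was low in the hypoxia-high tumors. Bnip3 is shown for its number of matches, and its levels overlapped between the tumors. The windows of 60 bases lie upstream of the outermost transcription start listed by RefSeq (assembly GRCm38.p6) and read 5′ to 3′ on the strand of the gene. That start can differ from the GENCODE gene ends given with the genes. The Car9, Slc2a1 and Egln1 windows reach into those gene spans, and the Ccr2 window lies wholly inside its span. Windows were placed where the matches lie, from 67 to 8 bases upstream for Car9 to 240 to 181 for Egln3. Ccr2 had 0 matches, and its window is the one next to the start, from 60 to 1 bases upstream. Capitals mark the HIF core on either strand. One form is ACGTG, which reads from the opposite strand as CACGT. The alternative form is GCGTG, which reads from there as CACGC. The palindrome CACGTG holds a match on both strands, and these overlap.
Car9 (chr4:43506959-43507018, plus strand): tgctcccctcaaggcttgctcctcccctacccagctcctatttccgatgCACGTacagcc
Slc2a1 (chr4:119108669-119108728, plus strand): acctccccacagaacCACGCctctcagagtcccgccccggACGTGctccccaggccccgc
Egln3 (chr12:54204055-54204114, minus strand): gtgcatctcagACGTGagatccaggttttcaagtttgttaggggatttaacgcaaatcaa
Hk2 (chr6:82774479-82774538, minus strand): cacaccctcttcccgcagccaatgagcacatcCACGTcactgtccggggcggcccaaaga
Adm (chr7:110627557-110627616, plus strand): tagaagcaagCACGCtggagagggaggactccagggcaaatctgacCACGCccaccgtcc
Egln1 (chr8:124949291-124949350, minus strand): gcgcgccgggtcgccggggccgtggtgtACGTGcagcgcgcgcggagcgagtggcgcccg
Bnip3 (chr7:138909583-138909642, minus strand): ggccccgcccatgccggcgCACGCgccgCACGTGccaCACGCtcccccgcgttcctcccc
Ccr2 (chr9:124102123-124102182, plus strand): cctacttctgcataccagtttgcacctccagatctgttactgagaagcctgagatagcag
Of 11 genes looked up, 10 had a listed promoter, among them 4 of the 5 score genes. Within 250 upstream bases Bnip3, a mitophagy receptor, held 5 matches, Slc2a1, Hk2, Adm and Egln1 held 2 each, and Car9 and Egln3 held 1 each. Vegfa, Mxi1 and Ccr2 held 0, and the windows of Vegfa and Mxi1 are not shown. Such a match was present in 38.6% of the 32851 windows of this length in the table, and CACGTG in 6.02%, so it describes the sequence and does not mark a bound site.

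The hypoxia score was next tested where it had chosen nothing, in the 14 tumors outside the anti-PD-L1 group with a like share of structural RNA. They are the 10 bifunctional tumors and the 4 trap control tumors above. Each gene's slope on the score was tested with edgeR's quasi-likelihood test, with treatment group as a covariate. A slope is the log2 change per unit of the score, and p-values measure the spread between these tumors. Of 15474 genes other than the score genes, 447 rose with the score (2.89%) and 100 fell (0.646%) at adjusted p under 0.05. The unadjusted p was under 0.05 for 3239. The counts depended on single tumors: 129 rose without bifunctional tumor C0482, 1605 rose and 2020 fell without C0479, and 5 fell without C0484. With host tissue scores as covariates 7 rose and 0 fell.

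Genes of the oxygen response rose with the score in these 14 tumors. Of 39 other HIF target genes 22 rose, with a median slope of 0.51, and of 22 glycolysis and lactate genes 13 rose, with a median of 0.42. The median over all genes was -0.003. No member of either list fell in this edgeR fit, where 1 of each fell at an unadjusted p under 0.05. DESeq2 called 1 HIF target as falling. Without C0479 edgeR called 1 glycolysis gene and 2 HIF targets as falling. With host tissue scores as covariates 2 HIF targets and 0 glycolysis genes rose, while the median slopes were 0.56 and 0.41. The glycolysis count was 5 without C0484, 6 without C0482 or trap control tumor C0466, 8 without C0487, 18 without C0479, and 4 with limma on TPM. For the other HIF targets it was 15 without C0484 or C0482, 29 without C0479, and 13 with limma on TPM. Of the 9 HIF factors and sensors only Cited2, an inhibitor of HIF that is itself a HIF target (slope 0.81), and Egln1 (slope 0.60, SE 0.057, edgeR adjusted p = 6.3e-05) rose, and the list's median slope was 0.00. Hif1a had a slope of 0.25 (edgeR adjusted p = 0.0872).

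Hk2, Mxi1 and Hilpda had the smallest adjusted p, 4.1e-05 each by edgeR. Hilpda (ENSMUSG00000043421, chromosome 6, 29272488 to 29275446, plus strand), which promotes lipid droplet storage, ran from 8.14 to 63.1 CPM in the 14 tumors with a median of 25.7. Its slope was 1.39 (SE 0.11). In the anti-PD-L1 tumors it was at 49.6, 44.0, 42.1, 27.2 and 23.7 CPM against 36.0, 27.0, 38.6, 37.7 and 16.5 CPM, and the groups overlapped widely. Hk2 ran from 79.2 to 168.9 CPM in the 14 with a slope of 0.63 (SE 0.053), and Mxi1 from 32.3 to 132.9 CPM with a slope of 0.97 (SE 0.080). Adm rose most steeply of the HIF targets named by the rule, with a slope of 1.56 (SE 0.151, edgeR adjusted p = 7.8e-05). Pgf, the vessel growth factor PlGF, had a slope of 1.44 (SE 0.25, edgeR adjusted p = 0.0074). Only 2 of 15 vessel growth signals rose, and Adm and Pgf are those 2.

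Next by adjusted p came Ptgs2, Atf3, Mt1, Ero1l and Abcc1, of which Ero1l, an oxidase of protein folding, is also a HIF target (slope 1.04). Ptgs2 (ENSMUSG00000032487, chromosome 1, 150100031 to 150108227, plus strand), the prostaglandin synthase COX-2, ran from 174.5 to 1320 CPM with a slope of 1.38 (SE 0.118, edgeR adjusted p = 4.2e-05). Atf3, a transcription factor of the stress response, rose with a slope of 1.10 and the metallothionein gene Mt1 with 1.12. Abcc1, an export pump for drugs and glutathione conjugates, rose with a slope of 0.58. In the anti-PD-L1 tumors Atf3 was at 11.9, 10.8, 11.4, 4.94 and 8.06 CPM against 8.54, 10.4, 8.79, 11.02 and 7.46 CPM. It did not follow the division there, with a difference of -0.017.

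Immediate early genes, which cells switch on within minutes of a stimulus, rose in 7 of 13 cases with a median slope of 0.61. The anti-PD-L1 tumors gave a median difference of 0.10. Inflammatory cytokines and myeloid chemokines rose in 5 of 17 cases with a median slope of 0.97. Among them Cxcl2, a neutrophil-attracting chemokine, had a slope of 1.86 (SE 0.391, edgeR adjusted p = 0.0216). In the 10 anti-PD-L1 tumors 11 of the 17 were higher, with a median of 0.15, which became 0.002 without C0478. The immediate early median became 0.003 without C0469 and C0470. Of 16 genes of the unfolded protein and amino acid stress response 4 rose, with a median of 0.29 against a difference of 0.11 in the anti-PD-L1 tumors. Of all genes tested 2.89% rose. The counts of rising genes in these lists depended on the method. In the order given, they were 1, 0 and 1 with host tissue scores as covariates, where the median slopes were 0.63, 1.02 and 0.50. They were 3, 1 and 2 with limma on log2(TPM + 1), and 10, 9 and 5 with DESeq2.

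**Figure D3:**
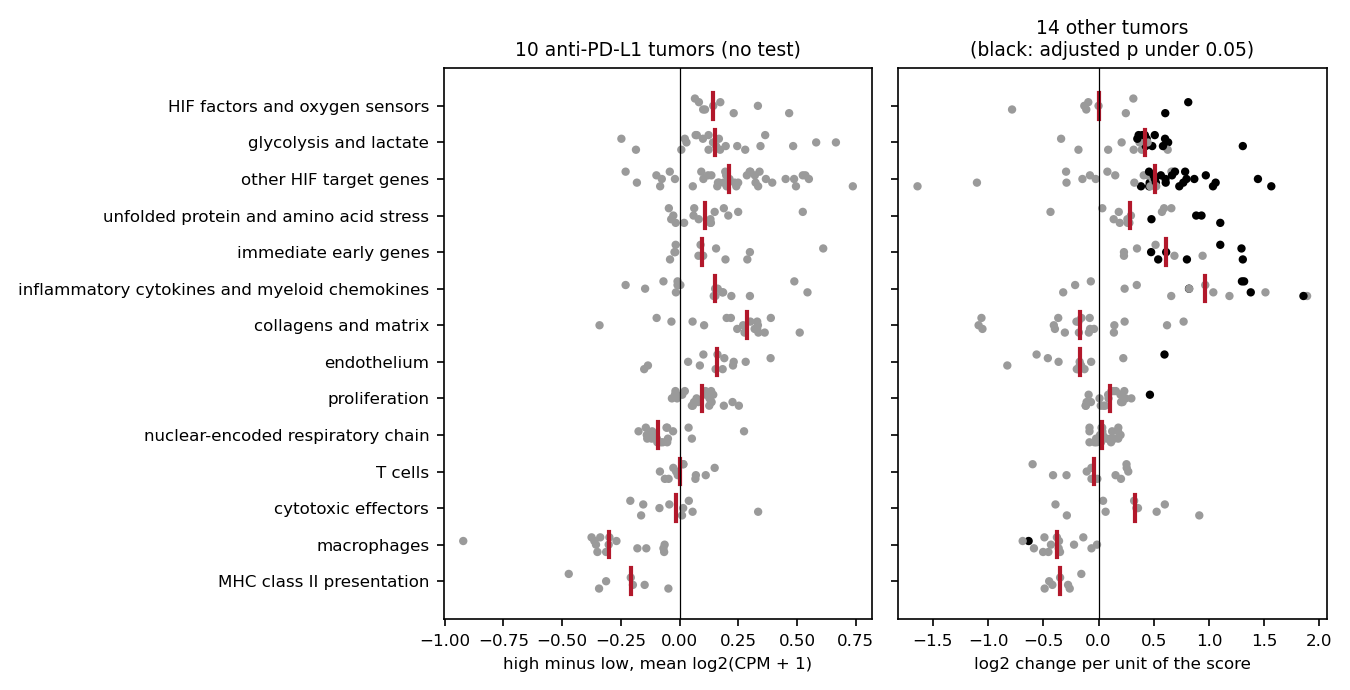
Left, difference in mean log2(CPM + 1) between hypoxia-high and hypoxia-low anti-PD-L1 tumors for each gene of 14 lists; right, slope on the score in the 14 other tumors, black where edgeR's adjusted p was under 0.05. Each dot is a gene and each red bar a list median. Other HIF targets lie at a median of 0.21 and 0.51, macrophage genes at -0.30 and -0.38, and collagens at 0.29 and -0.17.

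Macrophage genes were lower in the hypoxia-high tumors as divided here. All 15 measured markers had a lower mean, with a median difference of -0.30, and all 15 were detected in every tumor. Their summed level was 1282, 1777, 1215, 1075 and 1088 CPM in the hypoxia-high tumors and 1632, 1468, 1504, 1409 and 1657 CPM in the hypoxia-low tumors. C0478, the second highest score, had the most macrophage RNA of the 10, and the other 4 hypoxia-high tumors lay below all 5 hypoxia-low tumors. Without C0478 the median was -0.40, and without C0469 and C0470 it was -0.31. C0476 and C0477, on either side of the division, differed in score by 0.019 and held 1088 and 1632 CPM. Exchanging them would remove most of the difference in mean summed level, so that difference depended on where this pair was placed. The median was not computed that way. Cx3cr1, the receptor for fractalkine on monocytes and macrophages, was at 22.5, 12.1, 22.4, 20.9 and 30.2 CPM against 29.3, 39.9, 49.1, 33.7 and 54.1 CPM. The groups met only where C0476 just exceeded C0477.

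The 8 named genes that were lower in all 5 hypoxia-high tumors are those with the largest differences among the 66, which held 0 members of the macrophage list. Ccr2 (ENSMUSG00000049103, chromosome 9, 124101950 to 124113557, plus strand), the CCL2 receptor that brings monocytes into tissue, was at 62.6, 58.0, 85.5, 65.8 and 93.6 CPM against 102.5, 94.3, 129.9, 148.5 and 114.7 CPM. The 2 groups came within 1 CPM of each other at C0476 and C0472, and the difference was -0.69. Fcrls (ENSMUSG00000015852, chromosome 3, 87250758 to 87263738, minus strand), a scavenger receptor of macrophages and microglia, was at 24.9, 10.6, 13.7, 16.1 and 13.5 CPM against 25.1, 34.8, 32.8, 44.4 and 29.6 CPM. Its difference of -1.07 was the largest of the 8, and C0474 lay just under C0477. The others were the purinergic receptor P2ry13 (-0.72), the lipid receptor Gpr34 (-0.69), Ly86 (-0.63), which partners a Toll-like receptor relative, and the leukocyte receptor Cd300c2 (-0.55). Coro1a, an actin regulator of leukocytes, differed by -0.53 and Ntpcr by -0.62.

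Outside the anti-PD-L1 group, Ccr2 was also among the genes that fell with the score, with a slope of -0.75 (SE 0.124, edgeR adjusted p = 0.00553). It ran from 45.4 to 174.1 CPM in the 14 tumors with a median of 85.3. The other 7 named genes had slopes from -0.72 to -0.27 and did not pass (edgeR adjusted p from 0.108 to 0.434). Of the 15 macrophage genes only Fcgr1, the high-affinity receptor for IgG, fell (slope -0.63, edgeR adjusted p = 0.0339). The median slope of the list was -0.38, with 6 falling and 0 rising at an unadjusted p under 0.05, and DESeq2 called 2 as falling. Leaving out bifunctional tumor C0479 raised the number that fell to 8. Over all genes that omission raised the falling count from 100 of 15474 to 2020 of 15332. The ion transporter Slc12a2 had the smallest adjusted p of all falling genes (slope -1.01, edgeR adjusted p = 0.00315). Rnpep, Ifi209, Amy1, Cd300ld, Mab21l1 and Cgas, the sensor of cytosolic DNA, completed the 8 named, with slopes from -2.02 to -0.31.

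The 7 measured MHC class II presentation genes all had a lower mean in the hypoxia-high tumors, with a median of -0.21. Their summed level overlapped, at 82.8 to 220.4 CPM in hypoxia-high and 125.4 to 193.3 CPM in hypoxia-low tumors. The median was -0.15 without C0475, -0.17 without C0478, and -0.17 without C0469 and C0470. In each of these cases 6 were lower and 1 higher. H2-DMa, which loads peptides onto MHC class II, was at 9.24, 9.06, 14.9, 7.07 and 11.2 CPM against 11.8, 12.2, 15.8, 15.7 and 16.5 CPM. C0473 was the hypoxia-high tumor that reached into the low group. In the 14 other tumors the list had a median slope of -0.35 and 0 members passed, with 0 at an unadjusted edgeR p under 0.05 and 0 by DESeq2.

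**Figure D4:**
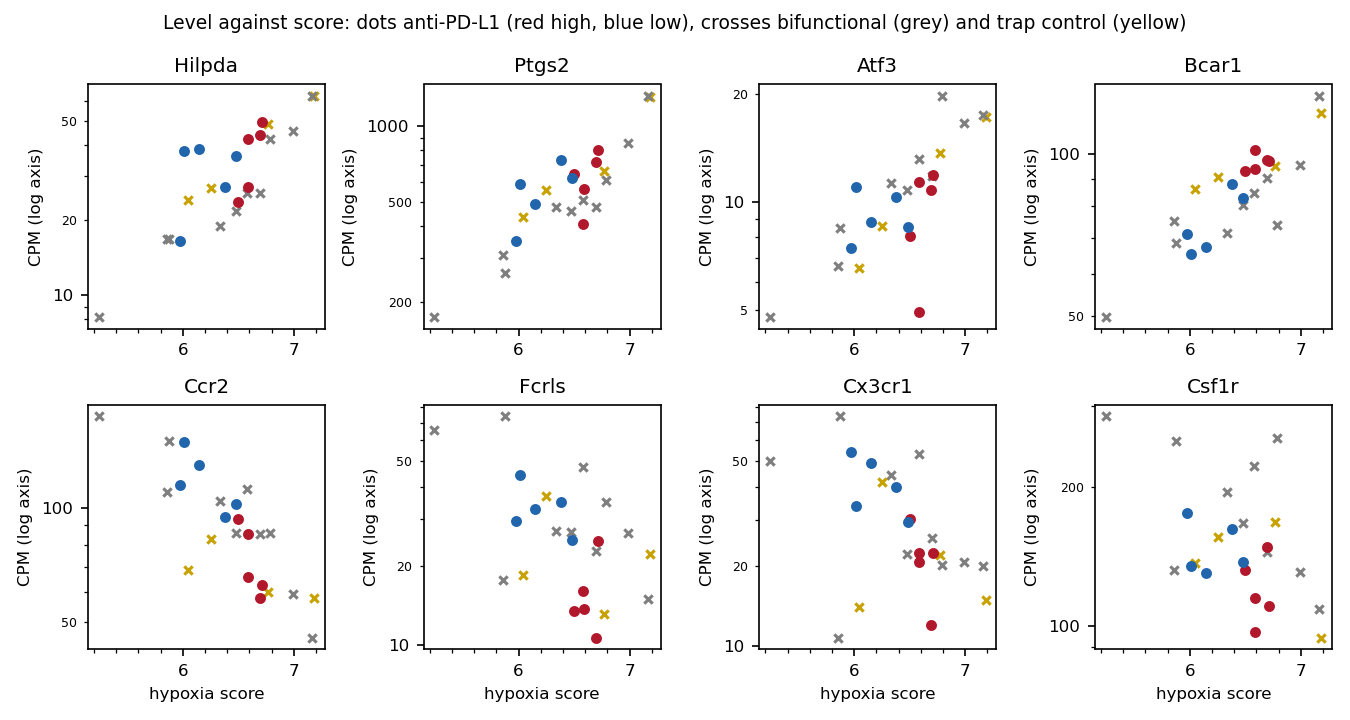
CPM (log y axes) against the hypoxia score for 8 genes; dots are anti-PD-L1 tumors (red hypoxia-high, blue hypoxia-low) and crosses the 10 bifunctional (grey) and 4 trap control (yellow) tumors used for the slope test. Hilpda, Ptgs2, Atf3 and Bcar1 rise with the score among the crosses and Ccr2 falls, while the slopes of Fcrls, Cx3cr1 and Csf1r did not pass (edgeR adjusted p of 0.17, 0.303 and 0.186).

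Described next are 7 genes that were higher in all 5 hypoxia-high tumors. Bcar1 (ENSMUSG00000031955, chromosome 8, 111710474 to 111743809, minus strand), the focal adhesion scaffold p130Cas, was at 97.1, 97.5, 101.7, 93.8 and 93.0 CPM against 82.9, 87.9, 67.2, 65.4 and 71.1 CPM. C0477 and C0472 lay between the other tumors, and the difference was 0.37. Bcar1 rose with the score in the 14 other tumors (slope 0.52, SE 0.088, edgeR adjusted p = 0.00584). Pkp2, a desmosome component, differed by 0.30 and also rose (slope 0.51, edgeR adjusted p = 0.0228), as did Fam117b (difference 0.44, slope 0.32, edgeR adjusted p = 0.0248).

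The AMP deaminase Ampd3 (0.43), the GTPase Rhoq (0.37), the kinase Wnk1 (0.37) and Ankrd9 (0.33) had slopes of 0.38, -0.07, 0.05 and 0.25 and did not pass. Fam117b and Wnk1 were lowest in C0469 and C0470, the 2 tumors with less RNA from long genes. Fam117b was at 26.8 and 24.6 CPM there against 41.5 to 51.5 CPM in the other 8. The part of transcript length in these differences was not tested.

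Of the 32 genes higher in all 5 hypoxia-high tumors, 30 could be tested in the 14 others. There 5 rose, 16.7% of them against 2.98% of the 14989 genes of the division that could be tested, and 23 had a positive slope. They are Bcar1, Pkp2, Fam117b, Mtss1 and Cep170. Of the 66 lower genes 2 fell, Ccr2 and the lymphoid transcription factor Ikzf1, 3.03% against 0.614%, and 54 had a negative slope. In the other direction, of the 447 genes that rose outside, 345 (77.2%) had a higher mean in the hypoxia-high anti-PD-L1 tumors, against 51.1% of all genes. Of the 92 falling genes that could be compared, 62 (67.4%) had a lower mean.

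Matrix and vessel genes did not keep one direction between the 2 sets of tumors. In the anti-PD-L1 tumors 17 of 20 collagens and matrix genes were higher in hypoxia-high tumors, with a median of 0.29. The summed level was 15800, 27350, 17590, 20880 and 17120 CPM against 20860, 17880, 15130, 9872 and 19520 CPM, so C0478 was highest, C0469 lowest, and the groups overlapped. Without C0469 and C0470 the median was 0.07, and without C0478 it was 0.08. In the 14 other tumors the median slope was -0.17, with 0 genes passing in edgeR (1 up and 2 down at an unadjusted p under 0.05) and 1 rising by DESeq2. Endothelium genes were higher in 11 of 13 cases with a median of 0.16, and without C0478 the median was -0.04. That tumor held 531.9 summed CPM of endothelium genes against 240.5 to 328.0 in the other 9, and 331.1 summed CPM of red blood cell genes against 45.5 to 167.9. Outside, the median slope of the endothelium genes was -0.17, and 1 of 13 rose and 0 fell in edgeR and in DESeq2, with 1 rising and 0 falling at an unadjusted p under 0.05. Without C0479 the median slope was -0.39 and 4 fell, beside 2020 of all 15332 genes tested.

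Differences in respiratory chain and ribosomal protein genes depended on C0469 and C0470, and the part of transcript length in them was not tested. Of 22 nuclear-encoded respiratory chain genes 19 were lower in hypoxia-high tumors, with a median of -0.09, and of 16 cytosolic ribosomal protein genes 14 were lower, with a median of -0.12. Without C0469 and C0470 these medians were 0.05 and 0.01. In the 14 other tumors the respiratory chain median was 0.03, with 0 genes passing in either direction (2 rising and 0 falling at an unadjusted edgeR p under 0.05, and 0 by DESeq2). The ribosomal protein median there was 0.36, opposite in sign to the division, and 1 of 16 rose in edgeR, with 12 at an unadjusted p under 0.05 and 12 by DESeq2. Without C0479 edgeR called 12 as rising, beside 1605 of all 15332 genes tested.

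Lymphocyte genes showed no stable direction. Of 12 measured T cell genes 6 were higher and 6 lower, with a median of 0.00, and the summed level was 7.40 to 11.4 CPM in hypoxia-high and 8.48 to 9.16 CPM in hypoxia-low tumors. Cytotoxic effectors were 5 higher and 5 lower, with a median of -0.02. They were 8 higher and 2 lower without C0475 (median 0.20) and 2 higher and 8 lower without C0469 and C0470 (median -0.10). In the 14 other tumors 0 of 15 T cell and 0 of 11 cytotoxic genes passed in edgeR, none at an unadjusted p under 0.05 and none by DESeq2. T cell genes were scarce, with Cd3e at 0.029 to 0.517 CPM and Cd8a at 0.120 to 0.709 CPM in the anti-PD-L1 tumors. Cd274, the gene of PD-L1, was at 9.59, 11.9, 10.7, 3.83 and 7.02 CPM against 7.85, 5.71, 7.06, 6.89 and 6.45 CPM. The 3 highest were hypoxia-high tumors and so was the lowest, and the slope outside was 0.82 (SE 0.291, edgeR adjusted p = 0.129).

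Whether the bifunctional protein differed from anti-PD-L1 in this response was tested over the whole groups of 10, within an edgeR fit of all 40 tumors. Of 75 hypoxia genes, the 5 score genes included, 3 were higher in bifunctional tumors, against 8.98% of all 15183 genes, and 0 were lower, against 4.0% of them. At an unadjusted p under 0.05 there were 8 higher and 5 lower, and DESeq2 called 4 and 2. The 3 were Epas1 (log2 fold change 1.15, edgeR adjusted p = 0.0255), Stc2 (1.60) and Ppp1r3c (2.40). Epas1 encodes HIF-2α and is high in endothelium. All 3 calls were lost without bifunctional tumors C0479 and C0484, and with host tissue scores as covariates.

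None of the score genes passed, with log2 fold changes of -0.01 for Vegfa, -0.01 for Slc2a1, -0.02 for Egln3, 0.16 for Ndrg1 and 0.27 for Car9 (edgeR adjusted p from 0.43 to 0.98). The mean score was 6.40 ± 0.589 in bifunctional and 6.41 ± 0.272 in anti-PD-L1 tumors (SD, n = 10 each). Isotype control tumors scored 6.43 to 7.63, but 34.2% to 62.0% of their counts were structural RNA, and their scores were not compared with the others.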

How the data were processed

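Bulk RNA was sequenced from 40 EMT-6 tumors in 4 groups of 10. Per the labels' protocols, libraries were depleted of ribosomal RNA and primed at random. Alignment and quantification tools listed in the submitters' processing notes are Bowtie2 2.3.1 and RSEM 1.2.31, with the build mm10. Annotation release and strand are not given in the sources used here. The authors deposited expected counts, which share reads among genes, and TPM, which divides by length, for 39012 genes; 14.0% of expected counts were not whole and were rounded. Symbols came from GENCODE M21 (96.4% of IDs).

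Totals ran from 13495835 to 27658263 per library. TMM scaling used all 40 libraries and the 15183 genes that passed edgeR's filter on low counts. The split compared log2(CPM + 1) with no test. Slopes and the treatment contrast used edgeR 4.0.16 quasi-likelihood tests, two-sided, with Benjamini-Hochberg adjustment over all genes tested and a threshold of 0.05. The fit of 14 tumors (structural RNA under 25% of counts) had 11 residual degrees of freedom. Procedures were tested on simulated data. Length is that of the longest GENCODE M21 transcript (98.6% of genes), compared between 3497 long and 2904 short genes.

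The members, the 35 gene lists, the tests and the naming rule were chosen with earlier results of these data known. The rule named the score genes, the 8 largest non-overlapping differences each way (mean at least 1 CPM, predicted genes and small RNAs left out), the 8 smallest adjusted p each way in the slope test, up to 4 members of each list by difference, and Hif1a, Epas1, Cd274, Pdcd1 and Tgfb1. One gene named by the rule is not reported here. Other named genes were chosen after their values were seen. Alternatives were DESeq2 1.42.0 size factors and Wald test, other filters, limma 3.58.1 on TPM, other scores and groups, covariates and leaving tumors out; the 7 against 3 division, TMM over the 10 tumors and the length checks were added after seeing the data. Plots used Python 3.11.15 with matplotlib 3.10.9.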

Additional observations from a re-analysis of the deposited data

Results flagged for a closer look

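In groups of 4 to 10 tumors, a value whose gap to its nearest neighbour was large against the group's range was picked out by Dixon's criterion, which picks about 1 set in 20 by chance; 4 values came from 79 sets. Among anti-PD-L1 tumors, C0475 held 166.3 CPM of Slc2a1 (244.8 to 362.5 in the other 9), 7294 summed CPM of glycolysis and lactate genes (8243 to 9221) and 184.3 summed CPM of skeletal muscle genes (0.829 to 1.74). In the 4 trap control tumors, C0465 held 24.8 CPM of Cd274 (7.51 to 8.95).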

How the results depend on the processing

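No paired analysis was possible because the tumor titles carry unique codes and the groups share no numbers. The division compared 15178 genes with 32 higher and 66 lower. It gave 125 and 4 with log2(TPM + 1), which moved C0477 up and C0474 down, 934 and 967 for the top 3 against the bottom 3, and 62 and 111 when ranked by the median gene. Leaving Vegfa or Egln3 out of the score exchanged C0477 and C0476 and gave 41 and 38. Of the 32 and 66 genes, 0 and 0 remained separated then and when ranked by the median gene, and 3 and 0 with log2(TPM + 1). Added after seeing the data, 7 tumors against 3 gave 426 and 399, and leaving out C0469 and C0470 gave 217 and 183. Leaving out 1 tumor gave 59 to 115 higher and 89 to 166 lower, and such omissions can only add to these counts. Groups of other sizes are separated by chance at other rates, so their counts cannot be set against those of the main division.

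Slopes outside the anti-PD-L1 group, 447 rising and 100 falling, became 254 and 64 with no filter, 889 and 397 with DESeq2, 89 and 0 with limma on log2(TPM + 1), and 88 and 0 with a pseudocount of 0.1. They were 124 and 11 in bifunctional tumors alone, 1293 and 936 in all 30 tumors, 430 and 277 in isotype control tumors, 211 and 49 with the structural RNA share as a covariate, 7 and 0 with host tissue scores, and 340 and 37 with the length index, added after seeing the data. Leaving out 1 tumor gave 129 to 1605 rising and 5 to 2020 falling. The slope of Bub1 reversed to -0.148 in isotype tumors, and that of Retn to 0.418 with host tissue scores. Of the slopes of named genes across settings 761 kept direction and threshold and 206 kept direction only.

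In bifunctional against anti-PD-L1 tumors, 3 higher and 0 lower hypoxia genes became 4 and 2 with DESeq2, 7 and 0 with limma on log2(TPM + 1), 2 and 4 in the 20 tumors alone, and 0 and 0 without C0479 and C0484 or with host tissue scores, where Ppp1r3c reversed to -0.431. The causes of these shifts were not tested.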
